A study of Sus scrofa with 6 samples.

Results

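The HOXA genes are one of the 4 HOX clusters of mammals, rows of neighbouring genes that encode homeodomain transcription factors. Genes at the 3′ end of a cluster (low numbers) are switched on early and towards the head in the embryo, and genes at the 5′ end (high numbers) later and towards the tail and the tips of the limbs. Adult muscle and connective tissue cells keep part of this positional pattern, and HOX proteins bind DNA together with cofactors of the PBX, MEIS and PKNOX families.

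RNA was sequenced from 2 skeletal muscles of Min pigs, a Chinese local breed. Longissimus thoracis (LT), a muscle of the back, and semitendinosus (ST), a muscle of the hind limb, each gave 3 libraries, 1 from each of 3 pigs of the same age. All samples carried the wild-type (WT) genotype, no treatment was given, and the sex of the pigs is not stated. LT and ST libraries with the same number came from the same pig, so the 6 libraries are 3 pairs. Each sample was whole muscle, in which fewer cells of a type and less RNA per cell cannot be told apart.

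Of 20288 annotated protein-coding genes, 9 HOXA genes are described, 7 found by a symbol made of HOXA and a number. The 2 others are entries without a symbol and were assigned to HOXA13 (ENSSSCG00000029666) and HOXA4 (ENSSSCG00000016704) because they overlapped RefSeq's genes of the same assembly over at least 80% of both spans. The 9 genes lie on the plus strand of chromosome 18 (Sscrofa11.1) from 45373440 to 45473347, a span of 99.9 kb, in the order HOXA13, HOXA11, HOXA10, HOXA9, HOXA7, HOXA5, HOXA4, HOXA3, HOXA2. RefSeq's HOXA6 lies wholly inside the HOXA5 entry, so HOXA5 and HOXA6 cannot be told apart in it. Levels are FPKM (the number of fragments divided by transcript length and by library size), which are per length and are set side by side between genes here. Orders and shares between genes also depend on the annotated transcripts, such as the HOXA5 entry that holds HOXA6. The FPKM of all transcripts of a gene were summed. The HOXA genes, in particular HOXA7, HOXA9, HOXA10 and HOXA11, were chosen because their ST and LT values were already known to differ, so their differences are given as a description, without a test.

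HOXA10 (ENSSSCG00000021204, 45393712 to 45403257), a gene of limb and posterior trunk patterning, had the largest ratio of ST to LT mean FPKM among the HOXA genes detected in both muscles. It had a value of 0 in LT of pig 1 and stood at 0.0900 FPKM in LT of pig 2 and 0.836 FPKM in LT of pig 3. In ST it stood at 6.55, 13.7 and 6.54 FPKM in pigs 1, 2 and 3. Every ST library was thus above every LT library. The means were 0.309 ± 0.459 FPKM in LT and 8.92 ± 4.12 FPKM in ST (SD, n = 3 each), a ratio of 28.9. On the log2(FPKM + 0.1) scale ST exceeded LT by 5.02 (SE 0.745, from a fit without a term for the pig, as for all SEs given here). With pig as a block the SE of this difference was 0.629. Because of the 0 in LT, this difference depended on the pseudocount, the constant added before taking logs, and was 6.47 with 0.01 and 2.90 with 1.

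HOXA9 (ENSSSCG00000028997, 45408377 to 45411510), the neighbour of HOXA10, was at 0.373, 0.808 and 6.39 FPKM in LT and at 10.5, 16.7 and 11.7 FPKM in ST. The groups did not overlap, but LT of pig 3 stood well above the other LT libraries. The means were 2.53 ± 3.36 FPKM and 13.0 ± 3.29 FPKM (SD, n = 3 each), and the log2 difference was 3.19 (SE 0.830). Within pigs the log2 difference was 4.49 in pig 1, 4.21 in pig 2 and 0.86 in pig 3. HOXA7 (ENSSSCG00000016701, 45417203 to 45419136), a trunk patterning gene, was at 1.52, 2.92 and 4.52 FPKM in LT and at 7.89, 6.04 and 9.45 FPKM in ST. Its groups did not overlap either, with means of 2.98 ± 1.50 FPKM and 7.79 ± 1.71 FPKM and a log2 difference of 1.46 (SE 0.373). The within-pig log2 differences of HOXA7 were 2.31, 1.02 and 1.05.

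The 2 genes at the 5′ end were listed at 0 in all 3 LT libraries, so no fold is given. HOXA11 (ENSSSCG00000016698, 45388574 to 45392573), which patterns the middle segment of the limb, was at 0.903, 0.0229 and 1.62 FPKM in ST, a mean of 0.850 ± 0.802 FPKM (SD, n = 3). HOXA13 (45373440 to 45380300), the gene of the hand and foot plate and the hindgut, was at 0.329, 0.0129 and 0.658 FPKM in ST, a mean of 0.333 ± 0.323 FPKM. For both genes ST of pig 2 was near 0. Without that library the ST means were 1.26 FPKM for HOXA11 and 0.493 FPKM for HOXA13.

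The genes from HOXA5 to HOXA2 had overlapping groups. HOXA5 (ENSSSCG00000016703, 45421663 to 45432885), a gene of cervical and thoracic patterning, was at 1.10, 1.33 and 2.83 FPKM in LT and at 2.59, 1.54 and 2.68 FPKM in ST, a log2 difference of 0.43 (SE 0.374). HOXA4 (45443407 to 45445642), a gene of cervical patterning, was at 0.611, 1.82 and 1.41 FPKM in LT and at 0.783, 0.943 and 1.79 FPKM in ST. Its log2 difference of -0.08 (SE 0.432) changed sign when FPKM were rescaled to transcripts that are not mitochondrial (0.02). HOXA3 (ENSSSCG00000016705, 45454213 to 45466543), which is needed for the thymus and parathyroid, stayed between 0.103 and 0.246 FPKM in LT and between 0.116 and 0.315 FPKM in ST, a log2 difference of 0.32 (SE 0.364).

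HOXA2 (ENSSSCG00000016706, 45470419 to 45473347), which patterns the hindbrain and pharyngeal arches, was near the detection limit, at 0.0599, 0.0222 and 0.0422 FPKM in LT and at 0.0231, 0 and 0.0202 FPKM in ST. It did not pass the filter of 0.1 FPKM in at least 1 library, and the lowest of the 9 genes that did was HOXA3, with a highest value of 0.315 FPKM. Of the 9 genes, 8 passed the filter.

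Among the 9 HOXA genes, 5 had no overlap between LT and ST, namely HOXA7, HOXA9, HOXA10, HOXA11 and HOXA13, and in all 5 ST was higher. In the opposite direction the count was 0. For HOXA11 and HOXA13 the separation rests on ST of pig 2, at 0.0229 and 0.0129 FPKM against 0 in LT. Values this near 0 cannot be told from 0. Over all 19672 genes tested, the groups did not overlap with ST higher for 16.6% and with ST lower for 8.08%. The genes were chosen with this contrast known, so their count is not read against these shares. ST was higher in all 3 pigs for 6 HOXA genes, the 5 above and HOXA3, with the same limit for HOXA11 and HOXA13 in pig 2. The share over all genes was not computed for this count. The plot of levels in cluster order shows how the log2 difference narrows from HOXA10 to HOXA4.

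**Figure D1:**
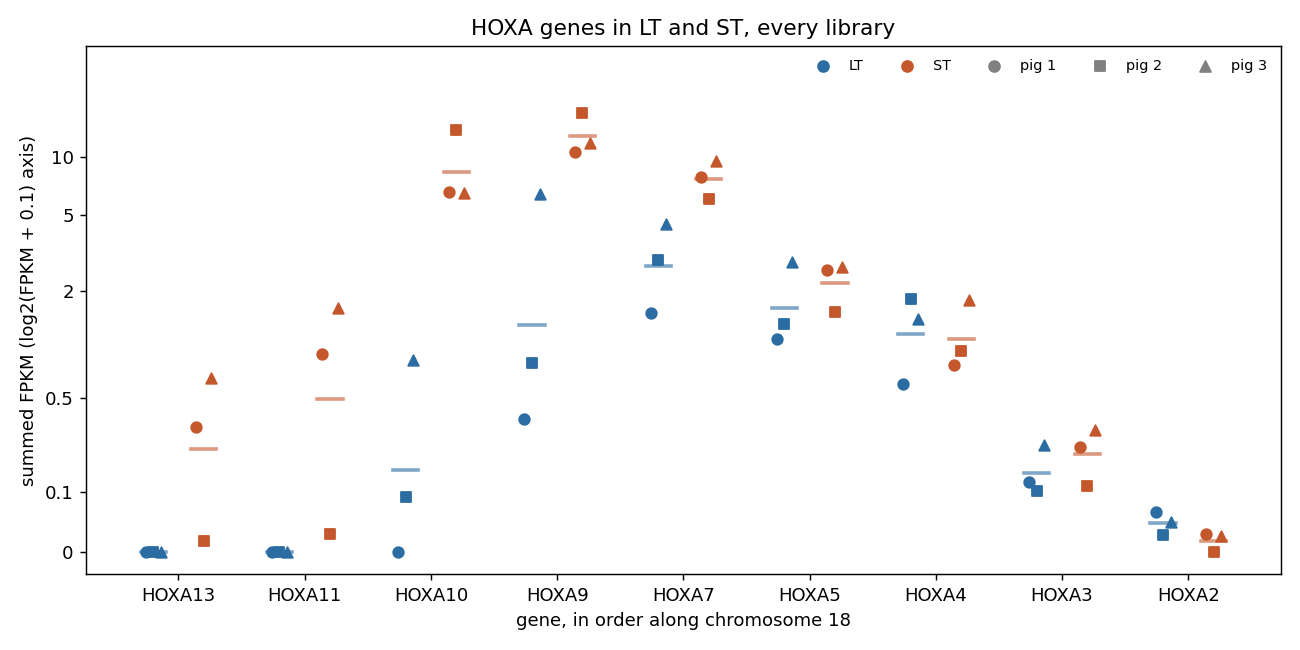
Summed FPKM of each HOXA gene on a log2(FPKM + 0.1) axis, in the order of the genes along chromosome 18, with LT in blue, ST in orange, a marker shape for each pig, and a bar at the mean of the transformed values. ST lies above LT without overlap for HOXA13, HOXA11, HOXA10, HOXA9 and HOXA7, and the groups overlap for HOXA5, HOXA4, HOXA3 and HOXA2. For HOXA13 and HOXA11, ST of pig 2 lies near 0 (0.0129 and 0.0229 FPKM).

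The order of the levels differed between the muscles. In LT the mean FPKM fell in the order HOXA7, HOXA9, HOXA5, HOXA4, HOXA10, HOXA3, HOXA2, and then HOXA11 and HOXA13 at 0. From HOXA7 to HOXA3 each gene overlapped the next over the 3 libraries, while HOXA3 lay above HOXA2 without overlap, and HOXA2 above the genes at 0. HOXA4 was above HOXA10 in each of the 3 LT libraries. HOXA9 was above HOXA5, and HOXA10 above HOXA3, only in LT of pig 3. The order of HOXA7 and HOXA9, and of HOXA5 and HOXA4, also changed between LT libraries. In ST the order was HOXA9, HOXA10, HOXA7, HOXA5, HOXA4, HOXA11, HOXA13, HOXA3, HOXA2. There the neighbours HOXA7 and HOXA5, and HOXA3 and HOXA2, did not overlap over the 3 libraries. Within each of the 3 ST libraries HOXA9 was also above HOXA10, HOXA5 above HOXA4 and HOXA11 above HOXA13, although their ranges overlapped. The order of HOXA10 and HOXA7, HOXA4 and HOXA11, and HOXA13 and HOXA3 changed between ST libraries.

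Summed, the 9 HOXA genes reached 3.79, 7.09 and 16.3 FPKM in LT and 29.8, 39.1 and 34.8 FPKM in ST. HOXA7 was the largest contributor in LT of pigs 1 and 2, with 40.0% and 41.2% of the sum, and HOXA9 in LT of pig 3, with 39.3%. In ST the largest share was that of HOXA9 in each library, at 35.3%, 42.8% and 33.6%. HOXA10 made up 21.9%, 35.0% and 18.8% of the sum in ST, against 0, 1.27% and 5.13% in LT. HOXA4, whose FPKM overlapped between the muscles, made up 16.1%, 25.7% and 8.68% of the LT sums but only 2.62%, 2.41% and 5.15% of those in ST.

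**Figure D2:**
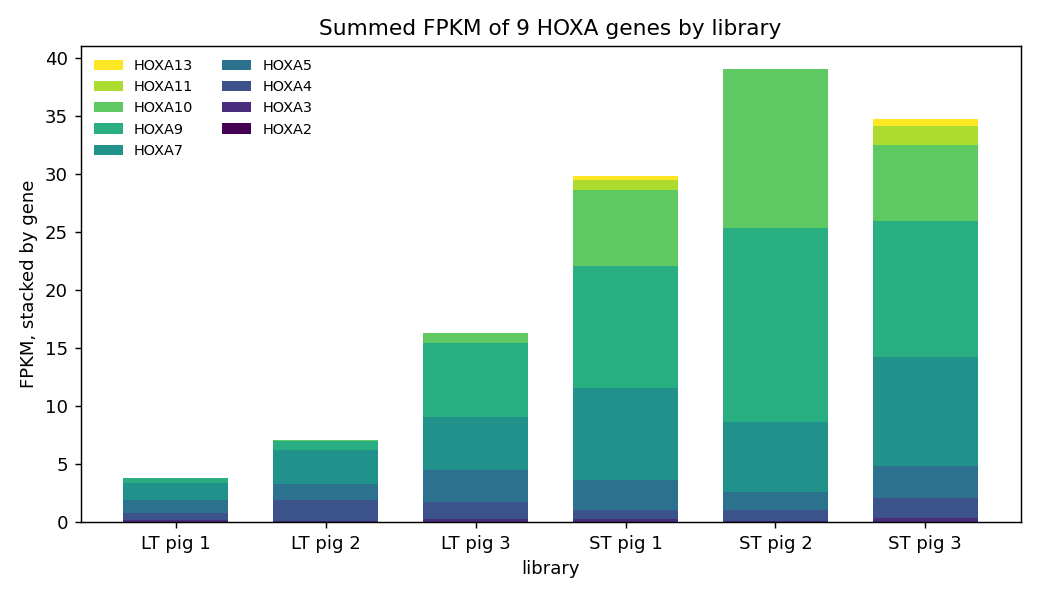
FPKM of the 9 HOXA genes stacked in 1 bar for each library, with the colours in cluster order. The bars reach 3.79, 7.09 and 16.3 FPKM in LT and 29.8 to 39.1 FPKM in ST, and most of the ST bars is HOXA9, HOXA10 and HOXA7.

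The 9 genes have 14 annotated transcripts, of which 11 exceeded 0.1 FPKM in at least 1 library. StringTie divides reads between overlapping transcripts, so these values are estimates. HOXA10 has 4 transcripts. ENSSSCT00000040210 (2592 bases, 2 exons) was at 0, 0.0790 and 0.836 FPKM in LT and at 3.09, 6.25 and 4.10 FPKM in ST. The shorter ENSSSCT00000018180 (917 bases, 3 exons) had a value of 0 in every LT library and stood at 3.08, 6.69 and 1.79 FPKM in ST, or 47.0%, 48.9% and 27.4% of the gene. ST libraries therefore held 2 forms at similar levels in pigs 1 and 2, while the HOXA10 signal of LT was 87.8% (pig 2) and 100% (pig 3) of the longer form. ENSSSCT00000076032 (2721 bases) stayed at or below 0.662 FPKM in ST and at or below 0.0110 FPKM in LT, and ENSSSCT00000028043 was above 0 in ST of pig 2 alone (0.0776 FPKM).

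HOXA9 has 2 transcripts, and both were higher in ST without overlap. ENSSSCT00000029161 (2056 bases) was at 0.373, 0.654 and 4.23 FPKM in LT and at 8.07, 11.3 and 9.01 FPKM in ST. ENSSSCT00000068446 (884 bases) was at 0, 0.154 and 2.17 FPKM in LT and at 2.45, 5.47 and 2.68 FPKM in ST. The shorter form was 23.3%, 32.7% and 23.0% of HOXA9 in ST and 0, 19.0% and 33.9% in LT, so these shares overlapped between the muscles although the levels did not.

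**Figure D3:**
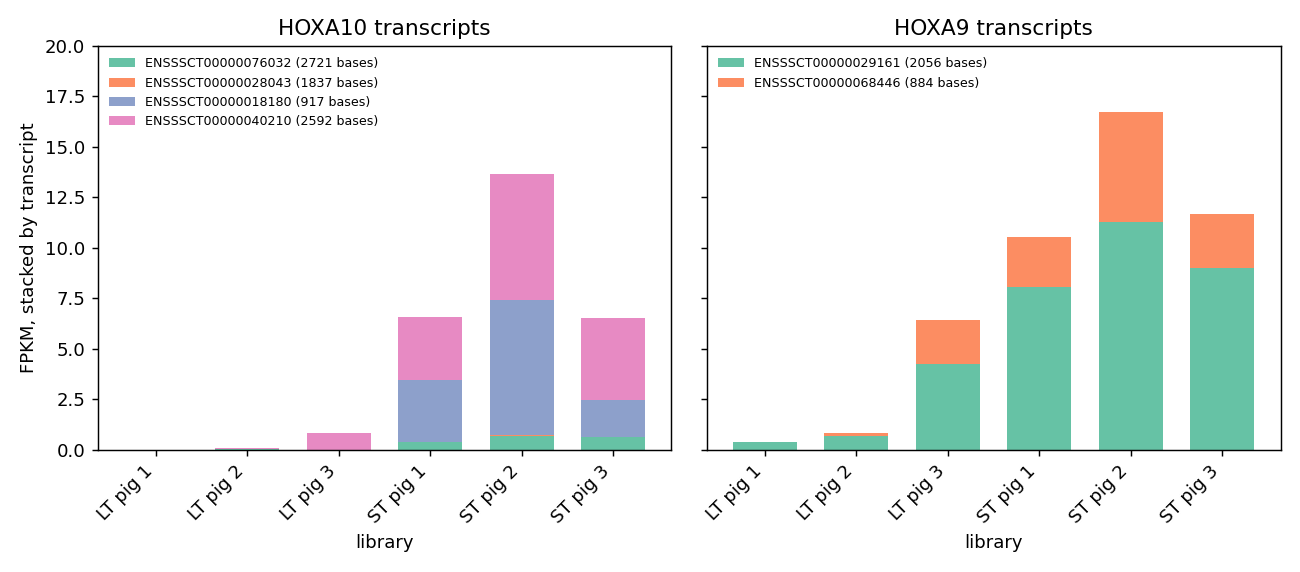
FPKM of the annotated transcripts of HOXA10 (left) and HOXA9 (right), stacked in 1 bar for each library. The 917-base form of HOXA10 is listed at 0 in LT and reaches 6.69 FPKM in ST of pig 2, and both forms of HOXA9 are present in every library except LT of pig 1.

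The libraries of the same muscle were not alike. In LT, pig 3 had the highest HOXA7, HOXA9 and HOXA10, and its summed HOXA level of 16.3 FPKM lay between the other LT libraries and the ST libraries. Without LT of pig 3 the log2 difference was 5.94 for HOXA10, 4.29 for HOXA9 and 1.81 for HOXA7. In ST, pig 2 had the highest HOXA9 and HOXA10 but the lowest HOXA7, HOXA11 and HOXA13. Without ST of pig 2 these differences were 4.67, 2.99 and 1.63, so the side of ST did not change.

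ST of pig 2 also stood apart in some fibre type and tendon genes, picked from the marker lists after their values were seen. TNNT1, the slow-fibre troponin T, was at 348, 207 and 246 FPKM in LT and at 1746, 382 and 2079 FPKM in ST. TNNT3, the fast-fibre troponin T, was at 8127, 7992 and 5185 FPKM in LT and at 1046, 4518 and 161 FPKM in ST. SCX, a tendon transcription factor, was at 0.542, 0.118 and 0.657 FPKM in ST, and TNMD, a tendon membrane protein, at 1.65, 0 and 2.48 FPKM. Of the 6 fibroblast and tendon markers listed, 4 were lowest in ST of pig 2 among the ST libraries, and 1, the collagen gene COL1A1, was highest there (29.7, 41.4 and 8.80 FPKM). Between the muscles TNNT1 had an adjusted p of 0.128 (limma, and of 0.0403 with pig as a block), with a log2 difference of 1.65 to 2.87 on leaving out each library, and TNNT3 differed by -2.93 (adjusted p = 0.185). ST of pig 2 thus had low TNNT1, SCX, TNMD, HOXA11 and HOXA13 together with the highest HOXA9 and HOXA10. Whether these differences have a part in the HOXA levels was not tested.

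**Figure D4:**
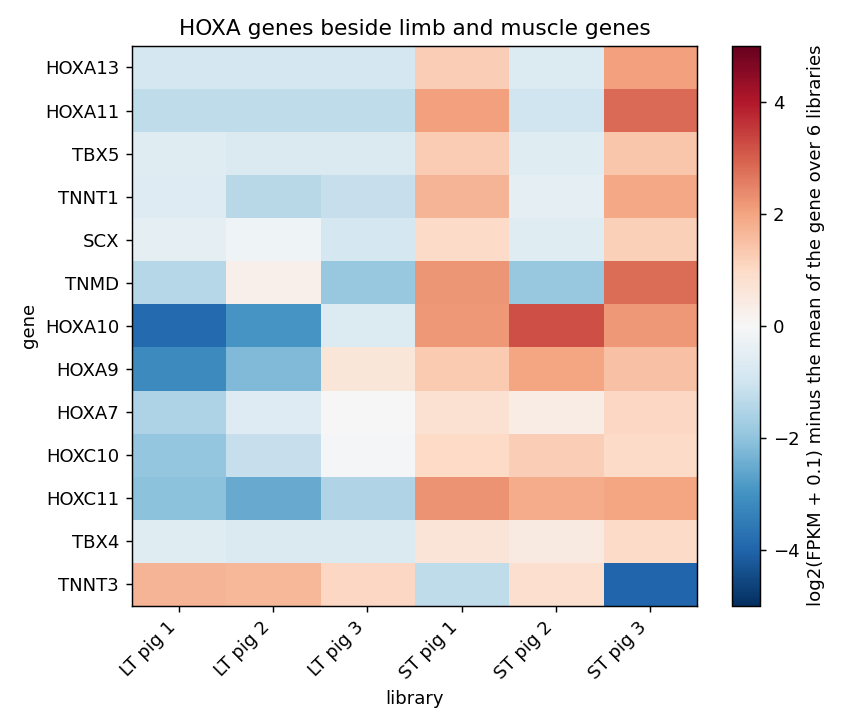
Each row is a gene and each column a library, and the colour gives log2(FPKM + 0.1) minus the mean of the gene over the 6 libraries. The genes were chosen after their values were seen. HOXA13 and HOXA11 are low in ST of pig 2 (0.0129 and 0.0229 FPKM), in which HOXA10 is highest (13.7 FPKM), and HOXA9 of LT of pig 3 (6.39 FPKM) lies above the mean of the gene.

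Further transcripts overlap the cluster. Within the span of the 9 genes the files list 8 lncRNAs (long non-coding RNAs), all above 0.1 FPKM in at least 1 library and all on the minus strand, opposite to the HOXA genes. In the fit over all transcripts 0 of the 8 were called (limma, adjusted p under 0.05 and absolute log2 difference above 1), against 0.146% of the 52102 transcripts tested, and 3 of the 8 had an unadjusted p under 0.05. Groups did not overlap for 3 of the 8, 2 with ST higher and 1 with ST lower, beside 12.3% of all lncRNAs. The library kit keeps the strand, but the strand setting of the counting is not given in the sources used here, so reads of these lncRNAs and of the HOXA genes may not be fully separated.

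LNC_005406 (45408252 to 45409263, minus strand), which overlaps HOXA9, was at 0, 0.0305 and 0.717 FPKM in LT and at 0.810, 1.06 and 0.916 FPKM in ST (log2 difference 2.22, SE 0.805, adjusted p = 0.470). Its LT library with the highest value was that of pig 3, as for HOXA9. LNC_005407 (45413281 to 45415191, minus strand), between HOXA9 and HOXA7, was at 0, 0.0581 and 0 FPKM in LT and at 0.211, 0.193 and 0.170 FPKM in ST (log2 difference 1.32, SE 0.372, adjusted p = 0.370). LNC_005412 (45461532 to 45463861), antisense to HOXA3, was lower in ST without overlap, with 0.162, 0.304 and 0.239 FPKM in LT and 0, 0.0548 and 0.0633 FPKM in ST (log2 difference -1.28, SE 0.398, adjusted p = 0.416). LNC_005405, inside HOXA13, followed the library pattern of HOXA13, with 0 in LT and 0.0932, 0 and 0.300 FPKM in ST.

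The other 4 lncRNAs showed overlapping groups. LNC_005409, also antisense to HOXA3, was at 0.259, 0.184 and 0.0641 FPKM in LT and at 0.273, 0.208 and 0.415 FPKM in ST. LNC_005408 and LNC_005410 did not exceed 0.287 FPKM, and LNC_005411 did not exceed 0.102 FPKM. The span also holds 10 transcripts classed as mRNA that the authors' assembly added, all on the minus strand, of which 9 passed the filter and 0 were without overlap, beside 17.7% of all mRNA transcripts tested. An annotated minus-strand mRNA of 174 bases (ENSSSCT00000043283) that runs over HOXA11, HOXA10 and HOXA9 was at 0 in LT and at 0.148, 0.0332 and 0.0662 FPKM in ST.

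The genes flanking the cluster did not pass the same test in the fit without a block. Within 1000 kb of the span the files hold 10 protein-coding genes outside it, of which 8 passed the filter and 0 were called (limma, 2 at an unadjusted p under 0.05), beside 0.574% of all 19672 genes, 0.412% with ST higher and 0.163% with ST lower (113 genes, or 799 with pig as a block). With pig as a block 1 of the 8 was called, NFE2L3, a bZIP transcription factor at 3.60, 1.32 and 3.88 FPKM in LT and at 0.694, 0.478 and 0.381 FPKM in ST (log2 difference -2.19, SE 0.417, adjusted p = 0.0640 without the block). EVX1, a homeobox gene 42.3 kb beyond HOXA13, was listed at 0 in all 6 libraries. HIBADH, an enzyme of valine breakdown 165 kb away on the same side, was at 36.1, 31.0 and 39.8 FPKM in LT and at 52.0, 46.1 and 59.8 FPKM in ST (log2 difference 0.56, SE 0.185, adjusted p = 0.166). TAX1BP1, an autophagy receptor, differed by 0.41 on the log2 scale. Beyond HOXA2, SKAP2, a signalling adaptor 89.0 kb away, differed by 0.35, SNX10, an endosomal sorting nexin, by -0.12 and HNRNPA2B1, an RNA-binding protein, by 0.07. The median of the 8 neighbours was 0.19, and that of all genes tested was 0.13.

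The other HOX clusters held genes that were lower in ST as well as genes that were higher. Over all 19672 genes tested, 0.574% were called (limma) and 3693 had an unadjusted p under 0.05. For HOXC, 7 of 9 genes passed the filter, and 4 were called, HOXC11 higher and HOXC6, HOXC8 and HOXC9 lower in ST, with a median log2 difference of -1.98. For HOXD, 6 of 8 genes passed, and 2 were called, HOXD8 and HOXD9, both lower, with a median of -1.87. With pig as a block HOXC10 was called in addition for HOXC and HOXD1 for HOXD, the former higher and the latter lower in ST. For HOXB, 5 of 9 genes passed and 0 were called (limma, 0 also at an unadjusted p under 0.05), with a median of -0.04.

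The paralogs of the 4 HOXA genes show this by number. In group 7, HOXB7 was at 1.03, 0.631 and 0.842 FPKM in LT and at 1.20, 0.735 and 1.40 FPKM in ST, overlapping, with a log2 difference of 0.36 (SE 0.298, adjusted p = 0.560). In group 9, where HOXA9 was higher in ST, HOXC9 was at 7.73, 8.20 and 8.31 FPKM in LT and at 1.43, 1.01 and 1.30 FPKM in ST, and fell by 2.61 on the log2 scale (SE 0.194, adjusted p = 0.00400). HOXD9 was at 2.79, 3.56 and 3.73 FPKM in LT and at 0.299, 0.354 and 0.392 FPKM in ST, and fell by 2.94 (SE 0.223, adjusted p = 0.00400). HOXC9 was above HOXA9 in every LT library, HOXD9 in LT of pigs 1 and 2 but not of pig 3, and HOXA9 was above both in every ST library.

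In group 10, HOXC10 was at 0.297, 0.584 and 1.33 FPKM in LT and at 2.98, 3.51 and 2.90 FPKM in ST. Its log2 difference of 2.14 (SE 0.426) did not pass the test (adjusted p = 0.0674), but did with pig as a block (adjusted p = 0.0318). LT of pig 3 had the highest HOXC10 of LT, as it had for HOXA9 and HOXA10. HOXD10 stayed at or below 0.0546 FPKM in every library. In group 11, HOXC11 was at 0.0375, 0 and 0.101 FPKM in LT and at 2.60, 1.95 and 2.17 FPKM in ST, and rose by 4.05 on the log2 scale (SE 0.316, adjusted p = 0.00421). Unlike HOXA11, HOXC11 was not low in ST of pig 2. HOXD11 did not exceed 0.134 FPKM.

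Leaving out a library ended some of these calls, while the log2 differences stayed between -2.71 and -2.48 for HOXC9, 3.80 and 4.31 for HOXC11, -3.07 and -2.86 for HOXD9, -3.36 and -2.90 for HOXD8, -4.26 and -4.06 for HOXC8, and -3.45 and -2.82 for HOXC6. In the fit without LT of pig 1, 0 of all 19672 genes were called (limma, 2911 at an unadjusted p under 0.05), and without LT of pig 2 the count was 1. HOXC9 and HOXC11 were no longer called without LT of pig 1 (adjusted p = 0.0613 for both) or of pig 2 (adjusted p = 0.0556 and 0.0537). HOXD9 and HOXD8 were not called without LT of pig 1, 2 or 3 (adjusted p from 0.0510 to 0.0613), HOXD8 also not without ST of pig 1 (adjusted p = 0.0522), and HOXC8 not without LT of pig 1 (adjusted p = 0.0510). HOXC6 was not called without LT of pig 1, 2 or 3 or ST of pig 1 (adjusted p from 0.0950 to 0.115), nor without the filter (adjusted p = 0.0544).

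**Figure D5:**
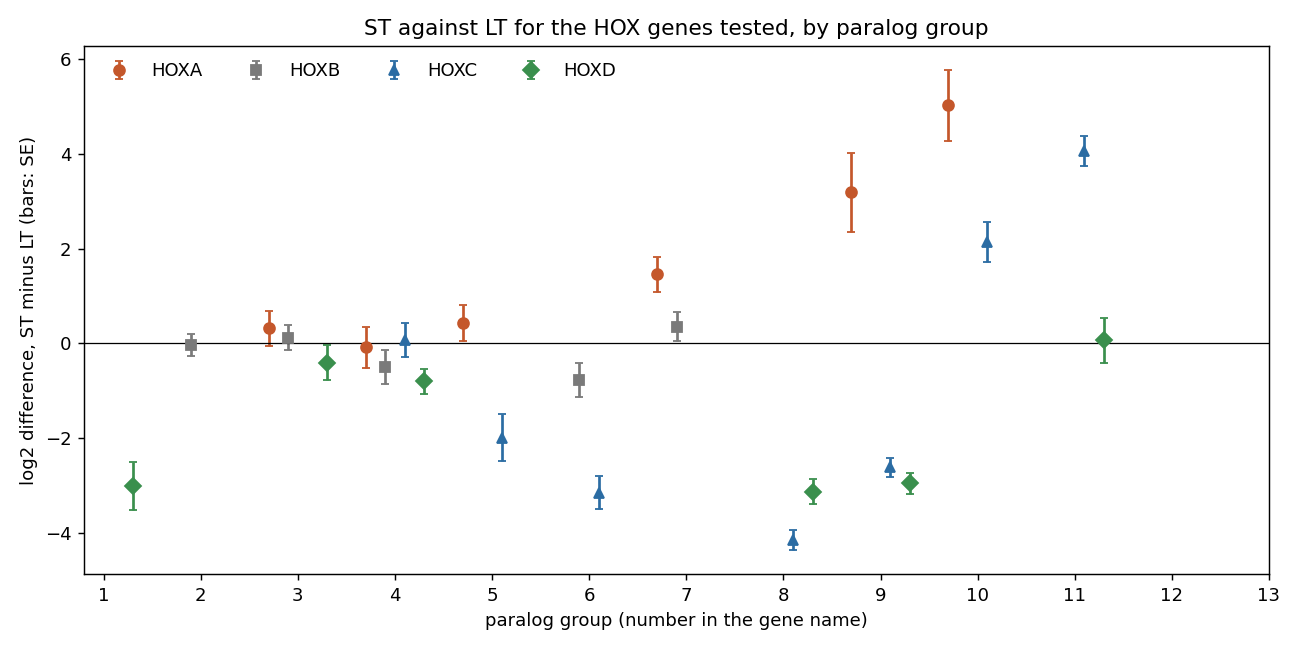
Log2 difference, ST minus LT, with its SE for the HOX genes that passed the filter, by the number in the gene name and with a colour for each cluster. HOXA11 and HOXA13 are left out because they are listed at 0 in LT. HOXA9 (3.19) is above 0 where HOXC9 (-2.61) and HOXD9 (-2.94) are below it, and HOXA10 (5.02), HOXC10 (2.14) and HOXC11 (4.05) are above 0.

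The cofactors of HOX proteins were measured in both muscles, without a call in the fit that had no block. Of 10 genes listed, 8 had an entry by symbol, with a median log2 difference of -0.16. Without a block 0 of the 8 were called (limma, 4 at an unadjusted p under 0.05). Of all 19672 genes tested, 0.574% were called and 3693 had an unadjusted p under 0.05. A count of 0 among 8 genes is near the share called. PBX3, a DNA-binding partner of HOX proteins, was at 5.46, 4.10 and 2.46 FPKM in LT and at 1.26, 2.36 and 1.07 FPKM in ST. Its log2 difference of -1.31 (SE 0.369) had an adjusted p of 0.122, and of 0.0442 with pig as a block. MEIS1, a cofactor that binds beside HOX and PBX proteins, was at 3.52, 5.34 and 4.82 FPKM in LT and at 2.98, 2.45 and 2.22 FPKM in ST (log2 difference -0.80, SE 0.223, adjusted p = 0.119). PKNOX2, a related cofactor, differed by 0.59 in the other direction (SE 0.243, adjusted p = 0.242).

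Chromatin regulators known to keep HOX clusters silent (Polycomb group) or active (Trithorax group) were also not called in the fit without a block. Of 21 genes, 20 had an entry and 0 were called (limma, 4 at an unadjusted p under 0.05). Among all 19672 genes tested, 0.574% were called and 3693 had an unadjusted p under 0.05. A count of 0 among 20 genes is near the share called. The median log2 difference of the 20 was 0.25. The largest difference was that of RNF2, a ubiquitin ligase of Polycomb complexes, which was at most 4.76 FPKM in LT and at least 7.10 FPKM in ST (log2 difference 1.14, SE 0.251, adjusted p = 0.0758, and 0.0317 with pig as a block). Of 3 limb genes listed, 2 had an entry, and PITX1 had none. TBX4, the hind limb T-box factor, was at 0.00937, 0 and 0 FPKM in LT and at 0.156, 0.126 and 0.222 FPKM in ST (limma, adjusted p = 0.0758, and 0.0454 without ST of pig 2). TBX5, the forelimb factor, was at 0.00945, 0 and 0 FPKM in LT and at 0.296, 0.00986 and 0.334 FPKM in ST (adjusted p = 0.220, and 0.0217 without ST of pig 2). On leaving out any other library the adjusted p was 0.163 to 0.252 for TBX4 and 0.350 to 0.470 for TBX5. The fit without ST of pig 2 called 771 genes in all, against 113 in the main fit.

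The genes whose library profiles were most like that of HOXA10 were sought by the root mean square difference of centred log2(FPKM + 0.1) values over the 6 libraries. They were HOXC11 (1.02), SBK2, a protein kinase gene (1.15), and AREG, an EGF receptor ligand (1.29). For HOXA11 they were ASIC1, an ion channel (0.243), SIM2, a transcription factor (0.270), and ENSSSCG00000006932, which has no symbol (0.348). ASIC1 was at 0.127, 0.0406 and 0.0797 FPKM in LT and at 1.44, 0.0916 and 3.43 FPKM in ST, so it was also low in ST of pig 2.

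Cell type markers found by symbol were read in both muscles, 4 of 12 for skeletal muscle. They were not used to tell LT from ST. ACTA1, skeletal alpha-actin, was between 1811 and 3025 FPKM in LT and between 1768 and 2899 FPKM in ST. Without a block the only markers called were endothelial, and 0 were called in the other 8 lists (limma, 5 genes at an unadjusted p under 0.05). Of all 19672 genes tested, 0.574% were called and 3693 had an unadjusted p under 0.05. With pig as a block TNNT1, KDR of endothelium and RGS5 of pericytes were called in addition. For endothelium 4 of 5 markers had an entry, and 2 of the 4, PECAM1 (adjusted p = 0.0438) and CDH5 (adjusted p = 0.0408), rose in ST, by 1.39 and 1.22 on the log2 scale. On leaving out each library these differences stayed between 1.23 and 1.58 and between 1.09 and 1.32. Both calls were lost in each fit without 1 library other than ST of pig 2 (adjusted p from 0.114 to 0.193) and with quantile normalization (adjusted p = 0.0619 and 0.0574), no filter (0.0793 and 0.0701) or no variance trend (0.0822 for both). The summed endothelial level was 47.1 to 71.0 FPKM in LT and 113 to 164 FPKM in ST. That of 3 smooth muscle and pericyte markers was 63.6 to 78.5 FPKM and 129 to 179 FPKM. The 6 fibroblast and tendon markers summed to 339 to 515 FPKM and 364 to 562 FPKM, the 3 satellite cell markers to 2.07 to 3.79 FPKM and 2.83 to 4.53 FPKM, and the 5 adipocyte markers to 65.2 to 180 FPKM and 47.3 to 148 FPKM. These last 3 sums overlapped between the muscles, as did those of the Schwann cell, macrophage and blood markers. No marker with an entry was at 0 in every library. Mitochondrial transcripts made up 5.36% to 8.16% of the summed FPKM in LT and 12.1% to 15.4% in ST. With FPKM rescaled to transcripts that are not mitochondrial, the log2 difference was 5.08 for HOXA10, 3.29 for HOXA9 and 1.57 for HOXA7. Without rescaling it was 5.02, 3.19 and 1.46. The part of the marker and mitochondrial differences in the HOXA levels was not tested.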

How the data were processed

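LT and ST muscles of 3 Min pigs gave 6 libraries. Libraries were made after rRNA removal. Reads passing SOAPnuke were aligned by the authors to Sscrofa11.1 (HISAT2), and the deposited FPKM are StringTie's estimates for each assembled or annotated transcript. Fragment numbers per transcript are not in these values, so the depth behind a single value is unknown and no interval from counts is given.

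The FPKM of all transcripts were summed per gene ID for every ID with an mRNA, assembled ones included. Of 20288 annotated genes, 14657 had a symbol. Genes and transcripts entered the comparison of ST and LT if any library exceeded 0.1 FPKM. The comparison used limma 3.58.1 in R 4.3.3, with values as log2(FPKM + 0.1), a trend in the variance and Benjamini-Hochberg adjustment. This scale understates the change of low genes. The main fit held no term for the pig, so it did not use the pairing of the libraries. A fit with pig as a block was run as an alternative. Features were called at an adjusted p under 0.05 if the log2 difference also exceeded 1 in size. The fit was tested on simulated data. Sums, shares and plots were made with Python 3.11.15, pandas 2.3.3, numpy 2.4.6 and matplotlib 3.10.9.

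The study's methods state that both muscles were sampled from 3 pigs. That same-numbered libraries are from the same pig rests on the sample titles. Residuals of same-numbered libraries over genes correlated at 0.290, 0.261 and 0.292, and those of different pigs at -0.185 to -0.109. The residuals of a muscle sum to 0 over its 3 libraries. The values of different pigs are therefore tied to those of the same pig and are no separate contrast.

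The HOXA genes and all gene lists were chosen with earlier results of these data known. One gene chosen by the rule is not reported here. Named were every other HOXA gene, its transcripts and the lncRNAs of its span, the paralogs of groups 7, 9, 10 and 11, members of lists of cofactors, chromatin regulators (the one with the largest difference) and limb genes, up to 3 neighbours with a symbol a side, and the 3 genes most like HOXA10 and HOXA11. Other genes called in a list, and the cell type markers named, were chosen after their values were seen. Alternatives were other pseudocounts and filters, pig as a block, FPKM rescaled to transcripts that are not mitochondrial, quantile normalization, no variance trend and leaving out each library. A fit of annotated genes alone was chosen after seeing the data.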

Additional observations from a re-analysis of the deposited data

How the results depend on the processing

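Of 96 alternative values for the HOXA genes, 34 equalled the reported log2 difference, since settings such as a filter, the block or the variance trend do not enter it. Of the other 62 values, 60 differed from it by less than the spread between libraries, the pooled SD within muscles. The other 2 were HOXA10 with a pseudocount of 0.01 (6.47) or 1 (2.90). Values from leaving out each library could not differ by more than this spread, because the library left out is part of it. The count of 60 is therefore no measure of stability. The sign changed in 5 alternatives, all for HOXA4. Leaving out each library in turn gave 4.33 to 5.94 for HOXA10, 2.40 to 4.29 for HOXA9, 1.06 to 1.81 for HOXA7, 0.17 to 0.81 for HOXA5, -0.50 to 0.21 for HOXA4 and 0.11 to 0.58 for HOXA3, and ST means of 0.463 to 1.26 FPKM for HOXA11 and 0.171 to 0.493 FPKM for HOXA13.

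The number of genes called varied more. It was 113 (81 higher and 32 lower in ST) as reported, 30 (18 and 12) without a filter, 315 (266 and 49) with rescaling to transcripts that are not mitochondrial, 61 (32 and 29) with quantile normalization, 29 (15 and 14) without a variance trend and 799 with the replicate block of the paired pigs, 558 higher and 241 lower. The causes were not tested. The median log2 difference of all genes was 0.13 as reported, 0.23 with rescaling and -0.01 with quantile normalization. Leaving out each library gave 0 to 771 genes. The 0 is without LT of pig 1 (limma, with 2911 genes at an unadjusted p under 0.05), and the count was 1 without LT of pig 2, 8 without LT of pig 3, 11 without ST of pig 1, 771 without ST of pig 2 and 17 without ST of pig 3. Annotated genes alone gave 100 calls of 13994.

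For transcripts the count was 76 as reported, 37 with a pseudocount of 1, 30 without a filter and 2 with the replicate block, and 3 to 93 on leaving out each library (17, 16 and 40 without LT of pig 1, 2 and 3, and 3 and 24 without ST of pig 1 and 3). With the replicate block, HOXC10, HOXD1, PBX3, RNF2, TNNT1, NFE2L3 and 2 further cell type markers (KDR and RGS5) passed the test in addition, and no call among the named HOX genes was lost. The depth behind single FPKM values is unknown, so values near 0 cannot be told from 0.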
